A study of Mus musculus with 8 samples.

Results

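The cytochrome P450 genes of families 1 to 3 encode haem enzymes that oxidise drugs, pollutants, steroids and fatty acids. They were taken from the kidney expression table by name: Cyp, a family digit from 1 to 3, a subfamily letter and a gene number. Cyp2r1, which hydroxylates vitamin D, was left out, as were 11 rows with other name forms, such as pseudogenes. This gave 57 genes among the 35275 of the table. Of these, 17 had a mean of at least 1 FPKM over the 8 mice (reads of a gene scaled to its length and to the library's depth) and are called expressed here.

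The mice were males on a C57BL/6J background, aged 40 weeks, fed from 6 weeks of age on a diet with 60% of its energy from fat. The KO group was 4 mice with both copies of C1qtnf1 (the CTRP1 gene) disrupted, and the WT group was 4 littermates with both copies intact. The deletion removed 679 bp of exon 4, of which 162 bp were untranslated. It arose in 129S5 stem cells and crossed to C57BL/6J for more than 6 generations, and it was present in all cells. Each library was poly-A RNA of 1 whole left kidney, so less RNA per cell and fewer cells of a type cannot be told apart. The comparison asks how loss of CTRP1, a hormone secreted into the blood, changes kidney gene expression in older obese mice.

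P450 enzymes sit in the endoplasmic reticulum and take electrons from the reductase encoded by Por. Family 1 genes are classical targets of the aryl hydrocarbon receptor, while the 2b and 3a subfamilies are classical targets of the receptors CAR and PXR. The 2c and 2j subfamilies include arachidonic acid epoxygenases, whose products act on renal salt transport and vessel tone. In the kidney these enzymes are found mainly in the proximal tubule.

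The signature of a P450 is the loop whose cysteine holds the haem iron. It was searched for in the longest reading frame of each expressed gene's principal transcript (GENCODE M21, mm10), as 10 codons in a row for phenylalanine, any 2 residues, glycine, any 3 residues, cysteine, any residue and glycine. It was found in 16 of the 17 genes, and Cyp2s1 had no match to this pattern. The 30 bases are shown 5′ to 3′ on the coding strand for the 3 genes with the lowest p, the 3 with the highest levels and the family 1 gene, and for Cyp2d12 to show a difference within the Cyp2d group. The cysteine codon is in capitals.
Cyp2d22: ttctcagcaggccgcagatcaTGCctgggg
Cyp2d26: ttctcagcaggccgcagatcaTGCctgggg
Cyp2d12: ttttcagcaggccgcagatcaTGCctgggg
Cyp2c44: ttctccctcgggaagcgatccTGTgttggc
Cyp2a4: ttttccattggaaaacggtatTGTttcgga
Cyp2j5: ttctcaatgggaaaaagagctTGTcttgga
Cyp2e1: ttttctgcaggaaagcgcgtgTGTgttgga
Cyp1b1: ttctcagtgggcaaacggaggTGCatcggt
The stretch was identical in Cyp2d22, Cyp2d26 and Cyp2d9 and differed from them by 1 base in Cyp2d12. It was also identical in Cyp2a4 and Cyp2a5.

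Likeness of this kind bears on how well reads can be assigned to a gene. The Cyp2a4 and Cyp2a5 reading frames differed at 23 of 1485 positions (98.5% identity). Their 30-base window with the most differences, from base 596 to 625 counted from the start of the Cyp2a4 frame, is shown with the differing bases in capitals.
Cyp2a4: tgtcactTcttAgaatgatgctgggaagcC
Cyp2a5: tgtcactGcttCgaatgatgctgggaagcT
Of all distinct 100-base stretches of Cyp2a4 transcripts, 11.2% also occurred in transcripts of another gene, and of Cyp2a5 12.1%. Cyp2d9 and Cyp2d12 were 92.1% identical and shared 7.91% and 1.73% of their stretches with other genes. Cyp2c44 and the 5 expressed Cyp2j genes shared none, and Cyp2d22 and Cyp2d26 shared 0.143% and 0.319%. Cyp2u1, Cyp2f2 and Cyp2s1 shared 8.59%, 4.05% and 3.24%, mainly with other kinds of transcript, and Cyp2e1 shared 1.16%. Of 50-base stretches more were shared, 38.8% for Cyp2a4, 37% for Cyp2a5, 21.8% for Cyp2d9 and 7.61% for Cyp2d12. The share was 9.49% for Cyp2d26 and 4.13% for Cyp2d22. Cyp2c44 and Cyp2j9 still shared none, and the share was 0.148% to 1.34% for the remaining expressed Cyp2j genes. For Cyp2u1, Cyp2f2, Cyp2s1 and Cyp2e1 it was 12.3%, 9%, 4.25% and 3.91%. The levels of Cyp2a4, Cyp2a5, Cyp2d9, Cyp2d12, Cyp2d22, Cyp2d26, Cyp2u1, Cyp2f2, Cyp2s1 and Cyp2e1 are uncertain where reads could fall in shared stretches.

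Every KO mouse had less C1qtnf1 RNA than every WT mouse (0.322 to 0.883 against 5.27 to 5.55 FPKM), so the libraries matched their labels. The libraries held 17884140 to 20344859 reads. Proximal tubule genes were high in all of them, with summed levels of the 10 markers of 6721 to 8319 FPKM in WT and 7080 to 7783 FPKM in KO. Adrenal markers summed to at most 1.22 FPKM in any mouse, with Cyp11b2 at 0. Of the 8 liver markers, Ttr held most of the summed 133 to 299 FPKM, and Cps1 was near 0. Alb had 5.84 ± 0.571 FPKM (WT) and 4.93 ± 0.593 FPKM (KO), and Apoa2 had 6.11 ± 0.926 and 8.46 ± 2.18 FPKM. Adipocyte markers summed to 0.188 to 5.15 FPKM. KO replicate 2 stood apart from the other mice. Its FPKM over all genes summed to 525275, against 437496 to 450339 in the others. Its scaling factor in the fits was 0.936, which raises its values further. Its 5 endothelial markers summed to 39.5 FPKM, against 72.8 to 77.9 FPKM in the other 7 mice, and limma gave its library a weight of 0.1001, with 0.6374 to 2.312 for the others.

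The kidney's xenobiotic P450 RNA was dominated by 3 genes. Cyp2e1, which oxidises ethanol, acetone and paracetamol, Cyp2j5, an arachidonic acid epoxygenase, and Cyp2a4, a steroid hydroxylase, together made up 67.9% to 75.2% of the summed FPKM of the 57 genes. That sum was 2096, 2294, 2343 and 2340 FPKM in WT replicates 1 to 4 and 2089, 2477, 2032 and 2391 FPKM in KO replicates 1 to 4. The groups overlapped in this sum. Reads of the 57 genes were 0.407% to 0.492% of a library.

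**Figure D1:**
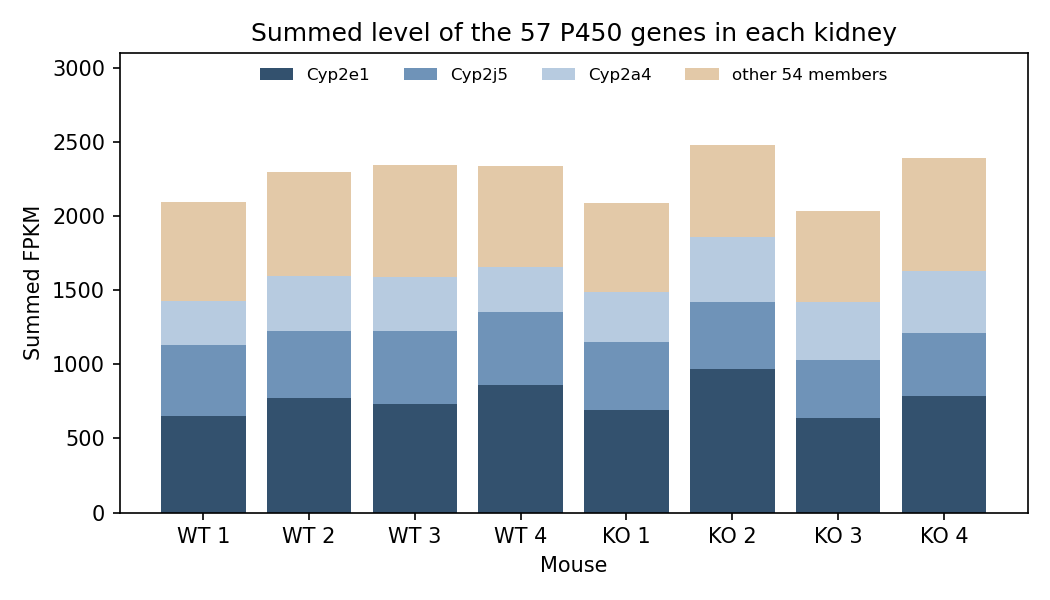
Summed FPKM of the 57 P450 genes in each mouse, with Cyp2e1, Cyp2j5, Cyp2a4 and the remaining genes stacked (y axis, FPKM; x axis, WT and KO replicates 1 to 4). The sums run from 2032 in KO replicate 3 to 2477 in KO replicate 2, and the 3 named genes hold most of each bar.

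After these 3 came Cyp2d26, Cyp2d9 and Cyp2d12 with means of 130.9, 122.5 and 109.3 FPKM over the 8 mice, neighbours whose ranges overlapped. Cyp2a5, which hydroxylates coumarin and nicotine, was at 87.9 FPKM, Cyp2j13 at 77.2 FPKM and Cyp2j11 at 71.9 FPKM, and these ranges overlapped too. Cyp2c44 followed at 31.4 FPKM and Cyp2d22 at 12.3 FPKM. The least abundant expressed genes were Cyp2s1, Cyp2j6, Cyp1b1, Cyp2j9, Cyp2f2 and Cyp2u1, from 7.91 down to 1.31 FPKM. The coefficient of variation between mice of a group had a median of 11.5% in WT (4.07% for Cyp2j6 to 30.4% for Cyp1b1) and 15% in KO (5.74% for Cyp2j6 to 38.9% for Cyp2u1).

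**Figure D2:**
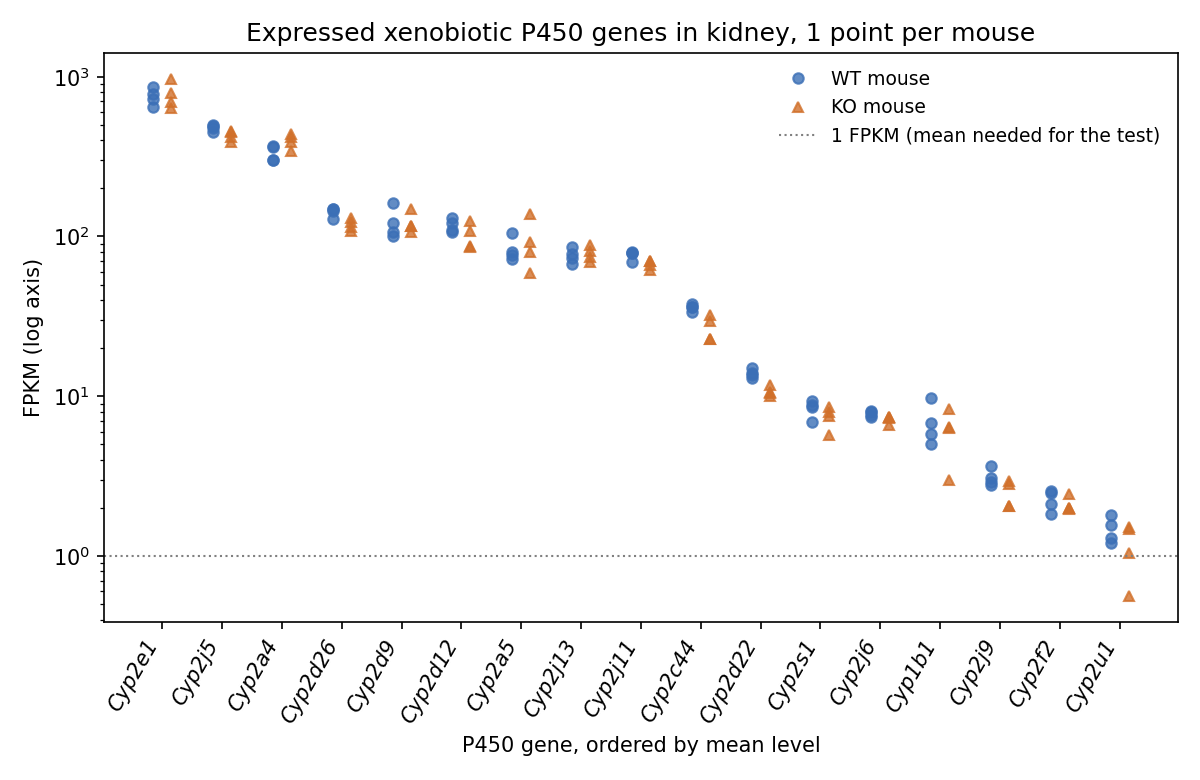
FPKM (log axis) of the 17 expressed P450 genes in each of the 4 WT mice (circles) and 4 KO mice (triangles), ordered by mean level. Levels span from about 1 FPKM for Cyp2u1 to 638 to 970 FPKM for Cyp2e1, and for most genes the groups overlap.

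The other 40 genes had means under 1 FPKM, of which 12 had 0 reads in all 8 libraries. A count of 0 allows up to 3 reads among the 153035815 of all libraries, by counting error alone. Among these 12 were Cyp1a2, an enzyme known for its high level in liver, Cyp2w1 and Cyp2c50. The highest of the 40 were Cyp2j7 at 0.571 FPKM, Cyp2c69 at 0.355, Cyp1a1 at 0.304, Cyp2b9 at 0.278 and Cyp2t4 at 0.267, so that Cyp2u1 and Cyp2j7 lay on either side of the limit of 1 FPKM. Cyp1a1, the best known target of the aryl hydrocarbon receptor, had 9 to 19 reads per mouse. The whole Cyp3a subfamily, 7 genes, had 87 reads in the 8 libraries together, and the 5 Cyp2b genes 170. With no filter on low values, 28 of the 40 could be fitted, and 0 of these had an adjusted p under 0.05 or an unadjusted p under 0.05 by limma. The 1 FPKM added before the logarithm flattens differences at such low levels. That fit could therefore detect little, and no conclusion was drawn from it.

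Expression followed subfamily unevenly along the chromosomes (mm10). The 8 Cyp2j genes lie side by side on chromosome 4 from 96027534 to 96664154, and 5 of them were expressed, with Cyp2j5 at one end at 455 FPKM and Cyp2j8 within the row at 0.0964 FPKM. On chromosome 15, from 82370527 to 82794294, 4 of 8 Cyp2d genes were expressed, Cyp2d22 and Cyp2d26 being the outermost. On chromosome 7, Cyp2a4 and Cyp2a5 were high while Cyp2a12 and Cyp2a22 between 26931631 and 27037375 had at most 2 reads in all. Of 15 Cyp2c genes on chromosome 19, only Cyp2c44 was expressed, from 44005022 to 44029208 on the minus strand. The annotation calls that gene Cyp2c23.

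In the comparison of KO with WT, 0 of the 17 expressed P450 genes passed the threshold of an adjusted p of 0.05 by limma, and limma-voom on reads also gave 0. Over all 12118 genes tested, 5 did (0.0413%), of which 2 were higher in KO (0.0165%) and 3 lower (0.0248%). At an unadjusted p under 0.05, 3 of the 17 were lower in KO, Cyp2d22, Cyp2c44 and Cyp2d26, and 0 were higher. The share at that level over all genes was 5.95%, with 2.47% lower and 3.48% higher. Limma-voom gave 3 of the 17 as well. In 2 of the 17, Cyp2d22 and Cyp2c44, every scaled KO value lay below every WT value, and in 0 above, against 2.83% and 2.33% of all genes. The difference KO minus WT was below 0 in 12 of the 17 (52.8% of all genes), and its median was -0.14 on the log2 scale, against -0.010 over all genes. When limma weighted the libraries by their quality, Cyp2c44 and Cyp2d22 passed (adjusted p = 0.0355 and 0.0325), as did 0.487% of all genes, 0.239% being lower in KO.

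Cyp2d22, the mouse gene often likened to human CYP2D6, stood at 13, 13.5, 13.9 and 15.1 FPKM in WT and at 10.5, 10.7, 10 and 11.7 FPKM in KO. The groups did not overlap, and the KO mean was 22.7% below that of WT, although this gene did not pass the threshold. The log2 difference was -0.32 ± 0.09 (SE, n = 4 each; limma adjusted p = 0.526). It lies on chromosome 15 from 82370527 to 82380260.

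Cyp2c44, an arachidonic acid epoxygenase of kidney and liver, stood at 37.9, 33.7, 36.1 and 36.2 FPKM in WT and at 22.9, 29.6, 22.7 and 32.2 FPKM in KO. KO replicates 1 and 3 were lowest, and KO replicate 4 came close to the lowest WT mouse. The log2 difference was -0.40 ± 0.13 (SE; limma adjusted p = 0.65), and the spread was wider in KO (SD 4.76 FPKM) than in WT (SD 1.72 FPKM).

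Cyp2d26 stood at 148.5, 128.2, 144 and 149.5 FPKM in WT and at 123.2, 109.4, 114.2 and 130.6 FPKM in KO. KO replicate 4 lay above WT replicate 2, so the groups overlapped. The log2 difference was -0.23 ± 0.09 (SE; limma adjusted p = 0.779), and leaving out the third or the fourth WT mouse, or KO replicate 3, took its unadjusted p above 0.05.

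The proximal tubule markers were measured beside these genes. Of the 10 markers 8 had a difference below 0 (52.8% of all genes) and 0 passed, with a median of -0.16. None had an unadjusted p under 0.05. The lowest p were those of the transporters Slc5a12 (WT 86.1 ± 8.79, KO 66 ± 19.2 FPKM) and Slc4a4 (WT 195 ± 6.98, KO 156 ± 47.4 FPKM). Slc22a6 (WT 373 ± 30.8, KO 409 ± 2.77 FPKM) and Miox (WT 2310 ± 329, KO 2435 ± 253 FPKM) had differences above 0. After scaling, the groups did not overlap in Slc22a6, higher in KO, and Slc4a4, lower in KO. Over all genes, 2.33% were higher and 2.83% lower without overlap. On the log2 scale, the markers' mean distance from the WT average was -0.43 for the second KO mouse. It was -0.08 to -0.02 for the remaining KO mice and -0.15 to 0.08 for WT mice. The part of tubule content in the P450 values was not tested. Without KO replicate 2, the log2 difference was -0.35 for Cyp2d22 and -0.48 for Cyp2c44 (limma adjusted p = 0.162 for both), and -0.22 for Cyp2d26 (adjusted p = 0.327).

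**Figure D3:**
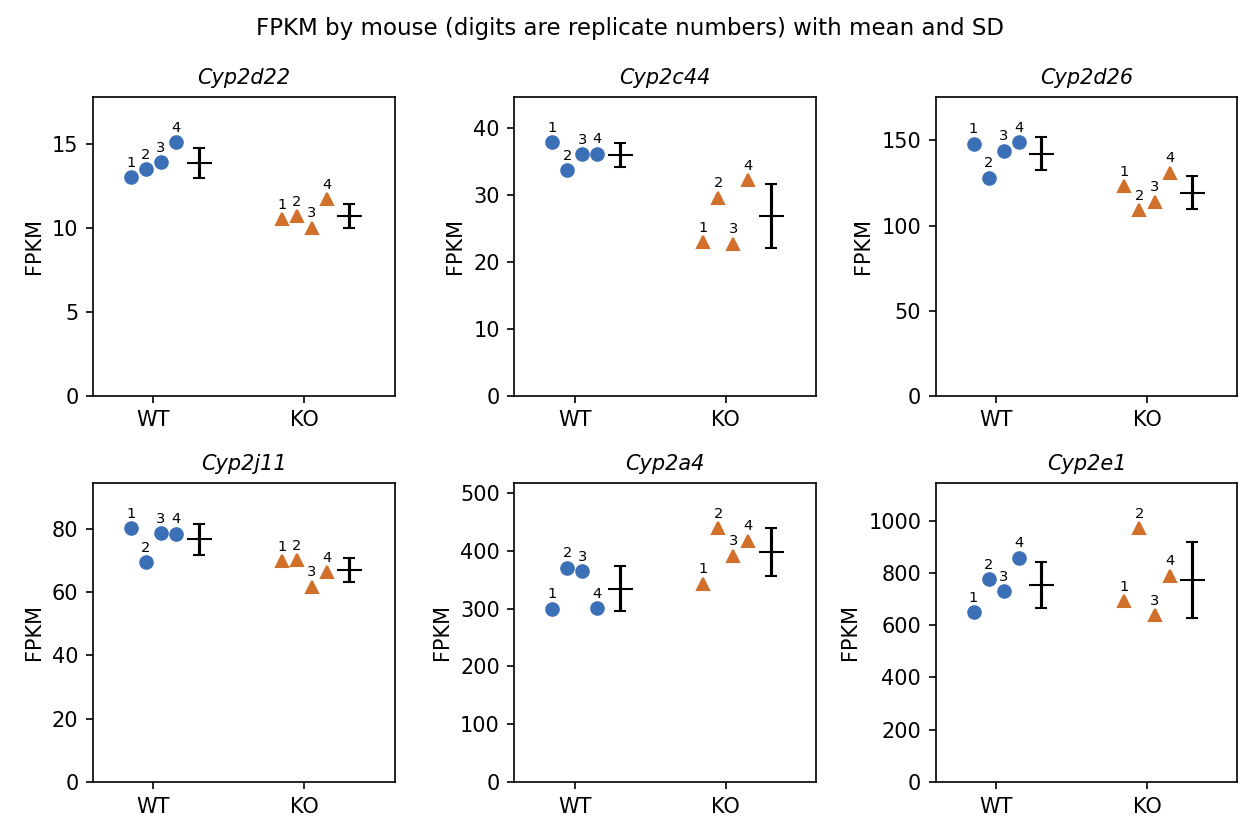
FPKM of 6 P450 genes in each WT mouse (circles) and KO mouse (triangles), with replicate numbers, the mean and the SD of 4 mice beside them. Cyp2d22 and Cyp2c44 show no overlap between groups, Cyp2d26, Cyp2j11 and Cyp2a4 overlap at the edges, and in Cyp2e1 KO replicate 2 is the highest mouse at 970 FPKM.

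The Cyp2j epoxygenase cluster had lower means in KO for 4 of its 5 expressed genes, with 0 past the threshold. Cyp2j5 stood at 478, 448, 495 and 497 FPKM in WT and at 456, 453, 390 and 420 FPKM in KO (log2 difference -0.14, 95% interval -0.37 to 0.09). Cyp2j11 stood at 80.2, 69.5, 78.6 and 78.5 FPKM in WT and at 69.9, 70.2, 61.8 and 66.3 FPKM in KO (-0.17, -0.37 to 0.03). WT replicate 2 fell among the KO mice in both genes. Cyp2j6 was at 7.81 ± 0.318 and 7.18 ± 0.412 FPKM (WT and KO, SD, n = 4) and Cyp2j9 at 3.1 ± 0.386 and 2.47 ± 0.479 FPKM. Cyp2j13 was at 75.9 ± 7.72 and 78.4 ± 8.22 FPKM, with overlapping groups. Without KO replicate 2, the count of the 17 genes lower in KO at an unadjusted p under 0.05 was 6 in place of 3, the added genes being Cyp2j5, Cyp2j9 and Cyp2j11, while over all genes 5.55% were lower and 5.93% higher at that level. Of the 17, 4 then had no overlap with lower values in KO, against 6.2% of all genes.

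Cyp2a4 was the gene with the largest difference above 0. It stood at 300, 371, 365 and 301 FPKM in WT and at 343, 439, 392 and 418 FPKM in KO, with KO replicate 1 below WT replicates 2 and 3. The log2 difference was 0.27 ± 0.13 (SE; limma adjusted p = 0.835). Its near copy Cyp2a5 stood at 76.5, 105, 79.5 and 72.5 FPKM in WT and at 59.4, 92.3, 79.5 and 138 FPKM in KO, so that KO replicates 1 and 4 were the extremes of all mice (log2 difference 0.12 ± 0.23, SE). The ratio of Cyp2a4 to Cyp2a5 was 3.53 to 4.59 in WT and 5.77, 4.76, 4.93 and 3.02 in KO replicates 1 to 4.

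Cyp2e1, the most abundant gene, stood at 650, 775, 730 and 858 FPKM in WT and at 692, 970, 638 and 789 FPKM in KO. The log2 difference was 0.05 with a 95% interval from -0.32 to 0.42, and without KO replicate 2 it turned to -0.10. Cyp2d9, which hydroxylates testosterone in males, had a log2 difference of 0.03 (-0.34 to 0.40) and Cyp2d12 one of -0.20 (-0.49 to 0.09). The unadjusted 95% intervals of the 17 genes reached from 0.19 to 0.53 on either side of the estimate. Those of Cyp2c44, Cyp2d22 and Cyp2d26 lay below 0, and these genes did not pass the adjusted threshold.

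Cyp1b1, which oxidises oestrogens and retinoids, varied most among WT mice, at 9.81, 5.83, 5.04 and 6.8 FPKM, with 6.41, 2.97, 8.31 and 6.37 FPKM in KO. KO replicate 2 was the lowest mouse, as it was for the endothelial markers, and its RNA of Cyp2u1, a fatty acid hydroxylase, was also lowest at 0.56 FPKM against 1.05 to 1.81 FPKM. Without that mouse the log2 difference of Cyp1b1 turned from -0.18 to 0.05, and that of Cyp2u1 moved from -0.21 to -0.08. Whether endothelial content accounts for either value was not tested. Cyp2s1 had 8.38 ± 1.07 FPKM (WT) and 7.45 ± 1.23 FPKM (KO), and Cyp2f2, best known for naphthalene oxidation in the lung, had 2.25 ± 0.329 and 2.1 ± 0.219 FPKM.

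**Figure D4:**
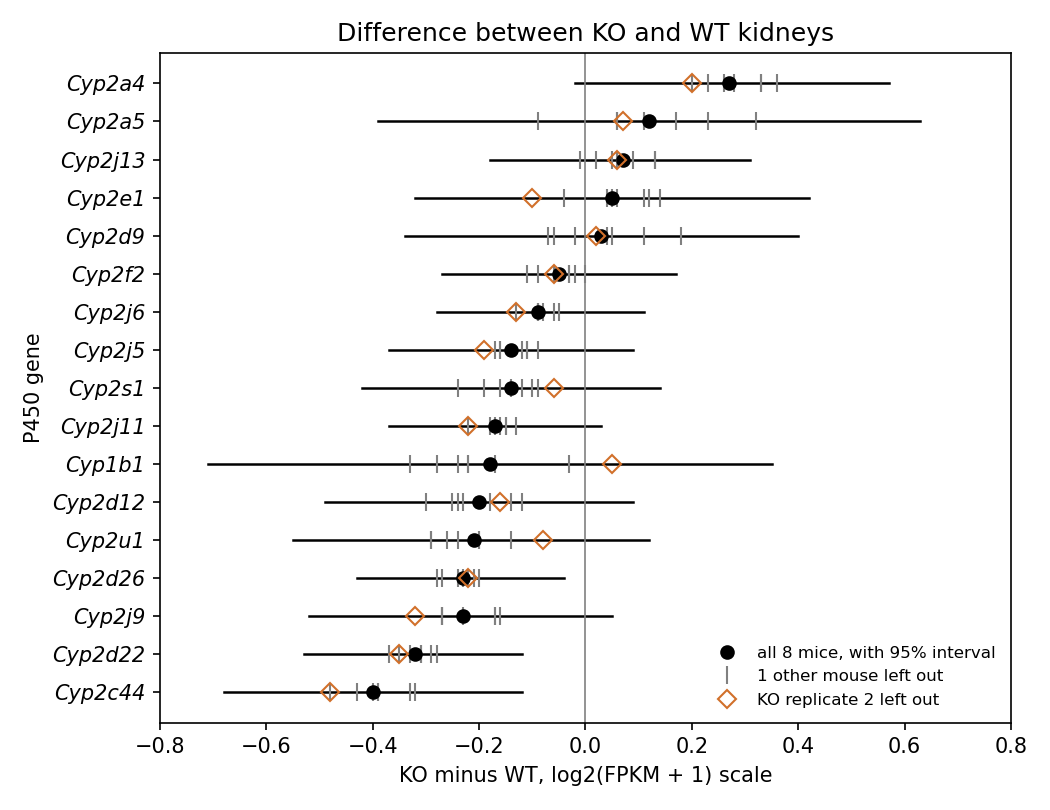
KO minus WT difference on the log2(FPKM + 1) scale for the 17 expressed P450 genes, with the 95% interval from limma (black), the value without KO replicate 2 (orange diamond) and without each other mouse (grey ticks). The intervals of Cyp2c44, Cyp2d22 and Cyp2d26 lie below 0 before adjustment, and Cyp1b1 and Cyp2e1 change sign without KO replicate 2.

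The genes that serve or control P450s showed 0 calls in either direction. Of 9 electron partners and haem enzymes 0 passed and 0 had an unadjusted p under 0.05. Levels of Por, the reductase, were 244 ± 23.9 FPKM (WT) and 232 ± 25.6 FPKM (KO). Hmox1, which degrades haem, had 15.5 ± 0.959 and 17.4 ± 1.83 FPKM, and Pgrmc1, a haem-binding partner, 118 ± 14.5 and 127 ± 7.07 FPKM. Of 20 tested receptors and regulators 0 passed, with 2 lower and 1 higher at an unadjusted p under 0.05 (2.47% and 3.48% of all genes). Nr1i2, the PXR gene, was at 3.86, 2.28, 3.28 and 2.96 FPKM in WT and at 1.99, 1.58, 2.34 and 1.81 FPKM in KO, with WT replicate 2 just below KO replicate 3 (log2 difference -0.46 ± 0.13, SE; limma adjusted p = 0.49). Cebpb, a stress-responsive factor, was at 11.2 ± 1.44 and 27.4 ± 19.2 FPKM (adjusted p = 0.71). Nr1i3, the CAR gene, was at 0.156 ± 0.0649 and 0.0397 ± 0.0201 FPKM and under the limit for testing, and Ahr was at 1.42 ± 0.146 and 1.5 ± 0.342 FPKM.

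Other drug-metabolising enzymes likewise gave 0 calls by limma. Of 23 tested oxidation and hydrolysis enzymes 3 were lower at an unadjusted p under 0.05, against 2.47% of all genes. The lowest p were those of Fmo4 and Aldh1a1. Fmo4, a flavin monooxygenase, measured 13.9 ± 0.422 FPKM (WT) and 10.6 ± 0.483 FPKM (KO), with a limma adjusted p of 0.309. Aldh1a1, a retinal dehydrogenase, measured 13.4 ± 2.38 and 8.12 ± 1.47 FPKM (adjusted p = 0.372). The library weights called both (adjusted p = 0.0231 and 0.0271). The median over the 23 was 0.01. Of 19 conjugation enzymes 1 was lower at that level, the glucuronosyltransferase gene Ugt2b34 at 7.09 ± 0.871 and 5.3 ± 0.989 FPKM, with a median of 0.02. Ugt1a7c, of the same enzyme class, had 85.8 ± 4.76 and 72.7 ± 13.5 FPKM. Of 8 other eicosanoid genes 0 had an unadjusted p under 0.05. Ephx2, the soluble hydrolase of the epoxides that Cyp2c and Cyp2j enzymes make, was at 187 ± 15 and 186 ± 23.2 FPKM, and Ephx1 at 31.2 ± 2.19 and 33.9 ± 6.83 FPKM. Ptges, a prostaglandin E synthase, had 6.19 ± 0.832 and 7.67 ± 2.34 FPKM.

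Several kidney P450 genes depend on androgen, so male-biased kidney genes were listed beside them. Of 9 tested genes 0 passed, with a median of 0.25. Slc22a7, which carries organic anions, had 5.02 ± 2.41 FPKM (WT) and 17.6 ± 7.83 FPKM (KO; limma adjusted p = 0.276), and Odc1, of polyamine synthesis, had 282 ± 10.3 and 354 ± 55.5 FPKM. Of 5 markers of the S3 segment 0 passed, with a median of -0.04. At an unadjusted p under 0.05, 1 was higher and 2 lower (3.48% and 2.47% of all genes). Slc22a7 is the higher one, and Slc7a12, an amino acid transporter gene, had 12.6 ± 4.56 FPKM (WT) and 6.72 ± 1.2 FPKM (KO; limma adjusted p = 0.424). Of other cell types, all 7 tested urothelium markers had differences above 0 and an unadjusted p under 0.05 by limma, with 0 past the threshold. Over all genes, 3.48% were higher at that level and 52.8% had differences below 0. However, Upk2, Upk3a, Upk3b and Krt5 had WT means of 0.48, 0.861, 0.862 and 0.686 FPKM. They reached the mean of 1 FPKM needed for testing only through their KO levels. The count of 7 is therefore partly set by that limit, and no conclusion was drawn from it. Upk1b, at 0.498 ± 0.121 (WT) and 1.21 ± 0.836 FPKM (KO), was under the limit. Summed levels of the urothelium markers were 4.24 to 11.6 FPKM in WT and 16.5 to 36.7 FPKM in KO. Psca had WT and KO levels of 1.92 ± 1.58 and 9.29 ± 3.71 FPKM and Upk3a 0.861 ± 0.417 and 3.16 ± 1.24 FPKM (adjusted p = 0.153 and 0.163). Macrophage markers summed to 82.5 to 94.8 FPKM in WT and 74.4 to 159 FPKM in KO, and collecting duct markers to 249 to 355 and 320 to 467 FPKM. Most of the latter sum was Aqp2, at 203 ± 35.1 (WT) and 313 ± 61.8 FPKM (KO). Fxyd4 had 12.3 ± 1.82 and 16.2 ± 3.8 FPKM, Aqp3 74.7 ± 11.7 and 71.3 ± 2.52 FPKM, and Scnn1g 10.9 ± 1.3 and 10.8 ± 1.04 FPKM. The part of these cells in the P450 values was not tested.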

How the data were processed

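Per the labels, RNA of 8 kidneys was sequenced after poly-T bead selection. The authors deposited 1 table with 1 column per mouse and no stated unit, treated here as FPKM since values of low genes rose in equal steps, smaller for longer genes. The authors list mm10, HTSeq 0.6.1, STAR 2.5, DESeq2 and CASAVA, per the submitters' processing notes; what each did, the filters and the strand setting were not given in the sources used here. Mapped reads were recovered from those steps with a fitted length per gene, and 22941 of 22945 genes above 0 gave whole reads within 0.002 in all libraries. Libraries were scaled by TMM factors (trimmed mean of M values) from these reads (0.94 to 1.05). limma 3.58.1 in R 4.3.3 (statmod 1.5.0, trend and robust options) was run on log2(FPKM / factor + 1) for all 12118 genes with a mean of at least 1 FPKM, with Benjamini-Hochberg adjustment over all of them. Fold differences on this scale understate low genes. The p-values test the KO minus WT difference against the spread among 4 mice per group, which limma moderates using all genes tested. Intervals are 95%, and limits for 0 reads use 3 reads and cover counting error only. The procedure was tested on simulated reads with the same set spread for every gene and no deviant library. These data differ in both respects, so the test does not cover a mouse like KO replicate 2. Alternatives were other scalings, filters, a pseudocount of 0.1, array weights, limma-voom and leaving out each mouse. Printed levels are as deposited, and overlap was judged after scaling. Every expressed member and the 5 highest below the limit were named. From each gene list, up to 4 called or the 2 lowest-p genes were named. Marker lists were given mainly by their sums. Further genes (Por, Ahr, Nr1i3, Ephx2, a few members, markers at or near 0 and further markers) were named after their values were seen. Members, lists and tests were chosen with earlier results of these data known. Sequences were compared with GENCODE M21 transcripts.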

Additional observations from a re-analysis of the deposited data

Results flagged for a closer look

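Of 36 sets of 4 mice tested for 1 value far from the rest (17 P450 genes and C1qtnf1 in each genotype), 2 held such a value, where chance gives about 1 in 20. Cyp2f2 was at 2.43 FPKM in KO replicate 1, against 1.96 to 2.01 FPKM in the other KO mice. Cyp2j11 was at 69.5 FPKM in WT replicate 2, against 78.5 to 80.2 FPKM in the other WT mice, which lay above all KO mice (61.8 to 70.2 FPKM).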

How the results depend on the processing

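Cyp2c44 and Cyp2d22 kept an unadjusted p under 0.05 and a negative difference in all 15 alternatives, with log2 differences of -0.51 to -0.32 and -0.40 to -0.28. Array weights, which gave KO replicate 2 little weight, called both (limma adjusted p = 0.0355 and 0.0325; adjusted p over the alternatives up to 0.965 and 0.964), so that 2 P450 genes passed, where 29 of all genes were lower (0.239%) and 30 higher. At an unadjusted p under 0.05 it gave 7 lower P450 genes in place of 3, while the share of all genes went from 2.47% to 6.96%. It also called 3 genes of the other lists, Fmo4, Aldh1a1 and Upk1a. In all other alternatives 0 P450 genes passed. With 1 mouse left out, 2 to 16 of all genes were higher, 1 to 12 lower, and 0 to 2 genes of the other lists passed. The differences changed sign in 5 of 17 genes. In the main fit they were -0.18 for Cyp1b1, 0.12 for Cyp2a5, 0.05 for Cyp2e1, 0.07 for Cyp2j13 and 0.03 for Cyp2d9. With array weights they were 0.17 for Cyp1b1, -0.00 for Cyp2a5, -0.17 for Cyp2e1, -0.03 for Cyp2j13 and -0.04 for Cyp2d9. With 1 mouse left out they ran from -0.33 to 0.05, -0.09 to 0.32, -0.10 to 0.14, -0.01 to 0.13 and -0.07 to 0.18 in that order. The cause was not tested. The other 12 kept their sign. No paired analysis was possible because the labels give each mouse a number of its own and do not say which KO and WT mice share a litter.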
